A study of Mus musculus with 4 samples.

Results

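The 10 genes described here mark macrophages of the liver. They were chosen by symbol in the authors' gene table, and all 10 were found among its 20909 named genes, each with 1 probe. Vsig4, Clec4f, Timd4, Cd5l and Marco were taken as markers of resident Kupffer cells, and Emr1 (now Adgre1), Csf1r, Cybb, Cd68 and Lyz2 as genes of macrophages in general. Livers of male C57Bl/6 mice with a mutant Wrn protein were compared with livers of wild-type males of the same strain, all aged 3 months and given no treatment. Wrn encodes a RecQ DNA helicase, and the site of the alteration is not in the labels. RNA of 1 mutant and 1 wild-type liver was hybridised together on each of 4 two-colour Agilent arrays, giving 4 independent pairs, with the mutant in Cy3 in pairs 1 and 2 and in Cy5 in pairs 3 and 4.

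Kupffer cells are the macrophages that line the liver sinusoids, where they clear particles, bacteria and aged blood cells from portal blood. In mice most of them descend from embryonic precursors and renew themselves locally. They depend on signalling through CSF1R, on the transcription factor PU.1 and on liver-specific cues, and their resident markers are largely surface receptors that take up complement-coated, glycan-bearing or apoptotic cargo. In bulk liver RNA, more macrophages and more of these transcripts per macrophage cannot be told apart.

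Ratios below are log2 values within 1 array, with the mutant taken as numerator. This reading is likely but is not stated in the files. It rests on the sample titles and on the name of the authors' table, which put the mutant first, and every sign would turn if wild type were the numerator. The probe for Wrn itself read 1.77, 0.91, 1.12 and 1.37 in pairs 1 to 4, and whether it lies in the altered part is not given. The medians of the 4 arrays lay between 0.0037 and 0.018, so a ratio near 0 was also near the array's centre. With 4 arrays, precision is limited throughout.

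All 10 genes had a positive fitted ratio, from 0.44 for Cd68 to 1.23 for Marco, where 53.4% of named probes had one. A fitted ratio above 0.5 was found for 9 of the 10 genes and for 14.3% of named probes. None of the 10 passed the test across all probes, in which limma called 0 of 40238 (0% at an adjusted p of 0.05, with 2673, or 6.64%, at an unadjusted p under 0.05). An unadjusted p under 0.05 was reached by 3 values, those of Vsig4, Csf1r and Cybb, where 4.74% of named probes were higher at that level. Without the dye term limma also called 0 probes, with 5.79% at an unadjusted p under 0.05. A limma fit whose prior variance followed intensity called 14 named probes higher (0.0687%) and again 0 of the 10 members, with Vsig4 the closest at an adjusted p of 0.118. Pairs 1, 2 and 4 read higher in the mutant for nearly every gene, and pair 3 did not.

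**Figure D1:**
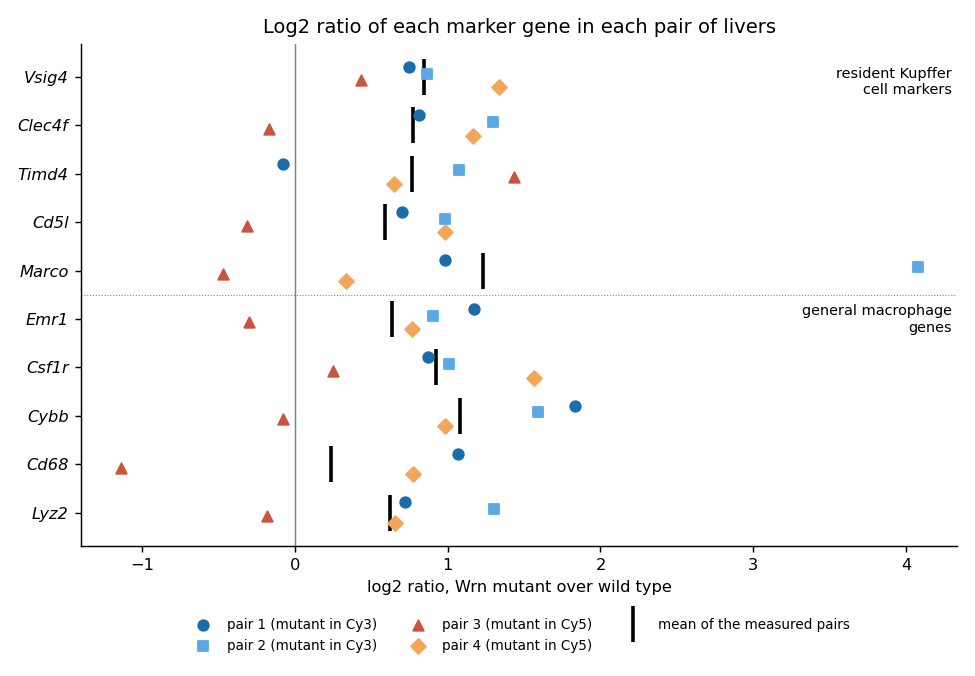
Log2 ratios, mutant over wild type, of the 10 genes (rows) in each of the 4 pairs (symbols), with the mean of the measured pairs as a vertical bar. The pair 3 triangles lie left of the other pairs for every gene except Timd4, and Marco reached 4.08 in pair 2.

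The promoters of the members were searched for short motifs. Of the 10 genes, 8 were searched in the RefSeq promoter table of build GRCm38.p6. Emr1 had no entry there, and Csf1r was set aside by name and not scored. Printed are 4, those of Vsig4, Clec4f, Timd4 and Cybb. They span the steadiest gene, the most Kupffer-specific one, the one that departed from the rest and a general macrophage gene. Each runs 5′ to 3′ on the gene's strand from 250 bases before the annotated start to 30 bases after it. Capitals mark GAGGAA and GGAAGT, overlapping pieces of the site bound by PU.1, searched on both strands. The windows are at chrX:96293409-96293688, minus strand, for Vsig4, chr6:83656087-83656366, minus strand, for Clec4f, chr11:46810549-46810828, plus strand, for Timd4, and chrX:9469295-9469574, minus strand, for Cybb.
Vsig4: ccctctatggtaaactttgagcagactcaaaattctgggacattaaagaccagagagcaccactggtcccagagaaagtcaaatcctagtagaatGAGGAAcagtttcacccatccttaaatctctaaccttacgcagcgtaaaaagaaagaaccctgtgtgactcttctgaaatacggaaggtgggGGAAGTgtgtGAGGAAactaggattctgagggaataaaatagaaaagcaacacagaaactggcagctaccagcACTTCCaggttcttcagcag
Clec4f: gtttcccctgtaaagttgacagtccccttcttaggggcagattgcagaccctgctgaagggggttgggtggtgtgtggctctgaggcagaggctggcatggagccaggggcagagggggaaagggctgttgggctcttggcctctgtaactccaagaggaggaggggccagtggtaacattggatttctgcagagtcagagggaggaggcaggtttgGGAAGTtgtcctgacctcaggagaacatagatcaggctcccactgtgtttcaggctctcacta
Timd4: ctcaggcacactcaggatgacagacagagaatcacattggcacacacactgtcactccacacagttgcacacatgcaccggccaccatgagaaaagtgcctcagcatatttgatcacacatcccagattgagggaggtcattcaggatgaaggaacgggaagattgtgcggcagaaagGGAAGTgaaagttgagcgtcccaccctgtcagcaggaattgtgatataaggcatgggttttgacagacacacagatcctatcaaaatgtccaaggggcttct
Cybb: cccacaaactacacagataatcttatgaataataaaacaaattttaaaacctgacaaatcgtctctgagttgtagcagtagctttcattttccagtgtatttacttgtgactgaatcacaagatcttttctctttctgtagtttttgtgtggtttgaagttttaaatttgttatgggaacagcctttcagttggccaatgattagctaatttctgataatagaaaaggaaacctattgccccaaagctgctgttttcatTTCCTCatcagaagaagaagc

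Vsig4 held both pieces, with GAGGAA starting 155 and 53 bases before the start and GGAAGT 63 bases before it, and GGAAGT again on the other strand just after the start. Clec4f and Timd4 held GGAAGT alone, 33 and 72 bases before the start. Cybb held only GAGGAA, on the opposite strand, from base 10 of the transcript. At least 1 of the 2 pieces was found in 8 of the 8 genes searched and in 40.7% of 32851 promoter windows of the same length. Csf1r was not scored among the members, whereas no gene was set aside by name from the 32851 windows. GAGGAA alone was in 5 of 8 and in 26% of all windows, GGAAGT in 5 of 8 and 22.3%, and TGCTGA, a stretch of the MAF recognition element, in 5 of 8 and 18.2%. No single motif was in more than 5 of the 8. The motifs and the printed windows were chosen after the values and the windows were seen. A match of 6 letters is a description of the sequence and not a bound site.

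Among the resident markers, Vsig4, the complement receptor CRIg that captures C3-coated bacteria, was the steadiest. Its log2 ratio was 0.75, 0.86, 0.43 and 1.33 in pairs 1 to 4. All 4 pairs were higher in the mutant, and pair 3 was the lowest. The mean was 0.84 ± 0.37 (SD, n = 4), or 1.80-fold, with a 95% interval from 0.24 to 1.44 (limma adjusted p = 0.736, unadjusted p = 0.0174).

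Clec4f, a galactose-binding lectin found in mice on Kupffer cells and hardly elsewhere, read 0.81, 1.29, -0.17 and 1.17 in pairs 1 to 4. Pairs 1, 2 and 4 lay together and pair 3 lay below 0. Its mean of 0.78 ± 0.66 (SD, n = 4) corresponds to 1.71-fold, and the interval from -0.029 to 1.58 reached 0. Cd5l, a secreted scavenger receptor protein also called AIM that binds lipid and blood debris, followed the same order at 0.70, 0.98, -0.31 and 0.98, with a mean of 0.59 ± 0.62. Both probes were bright, with average log2 intensities of 10.3 and 10.8 against a median of 6.40 for named probes.

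Timd4, the phosphatidylserine receptor TIM-4 that marks embryonically derived Kupffer cells and binds apoptotic cells, had another pattern. It read -0.075, 1.07, 1.43 and 0.65 in pairs 1 to 4. It was the highest member in pair 3, where most others were below 0, and the lowest in pair 1, where all others were above 0. Set against the median of the other 4 resident markers in the same pair, Timd4 differed by -0.85, -0.066, 1.68 and -0.43, which averages 0.082 ± 1.11 (SD, n = 4), so no constant offset exceeded the spread. Its mean ratio was 0.77 ± 0.65, near that of Clec4f. The Timd4 probe was dimmer than the median named probe, with an average log2 intensity of 6.30.

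Marco, a collagen-domain scavenger receptor that binds bacteria, was the most variable member. It read 0.99, 4.08, -0.47 and 0.34 in pairs 1 to 4. The value in pair 2 lay above those of the other 3 pairs by more than 3 log2 units and decided the mean of 1.23 ± 1.99 (SD, n = 4). Without pair 2 the fitted ratio was 0.46, and without pair 1 it was 2.00. With an average log2 intensity of 6.03, Marco was also the dimmest of the 10 probes.

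Csf1r, the receptor for the growth factors CSF1 and IL-34 on which macrophages depend for survival, was the other gene higher in every pair. It read 0.87, 1.01, 0.25 and 1.56 in pairs 1 to 4, with pair 3 again the lowest. The mean was 0.92 ± 0.54 (SD, n = 4), or 1.90-fold, with a 95% interval from 0.16 to 1.69 (limma adjusted p = 0.736, unadjusted p = 0.0282). Without pair 4 the fitted ratio was 0.60.

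Cybb, the catalytic gp91phox subunit of the phagocyte NADPH oxidase, read 1.83, 1.59, -0.080 and 0.98 in pairs 1 to 4. The values of pairs 1 and 2 were both above those of pairs 3 and 4. Its mean of 1.08 ± 0.85 (SD, n = 4), or 2.12-fold, had a 95% interval from 0.41 to 1.75 (limma adjusted p = 0.736, unadjusted p = 0.0109). That interval uses the spread left after the dye term, which is smaller than the SD over the 4 pairs.

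Emr1, an adhesion G protein-coupled receptor widely used to stain mouse macrophages, read 1.17, 0.90, -0.30 and 0.77 in pairs 1 to 4. Lyz2, lysozyme of macrophages and neutrophils, read 0.72, 1.30, -0.18 and 0.66, and its probe may also read the near-identical copy Lyz1. The 2 genes had close means, 0.64 ± 0.65 and 0.62 ± 0.61 (SD, n = 4), and both lay below 0 in pair 3 alone. The fitted folds were 1.55 and 1.54, and both intervals reached just below 0.

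Cd68, a glycoprotein of macrophage endosomes and lysosomes, was measured in 3 pairs only. It read 1.07, -1.14 and 0.78 in pairs 1, 3 and 4, and had no value in pair 2. The pair 3 value was the lowest of any member in any pair. The plain mean was 0.24 ± 1.20 (SD, n = 3), and the fitted ratio was 0.44, because the fit with a dye term gives pair 1 the weight of pairs 3 and 4 together (95% interval from -1.22 to 2.11, limma adjusted p = 0.847).

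Ordered by fitted ratio, the genes ran Marco, Cybb, Csf1r, Vsig4, Clec4f, Timd4, Emr1, Lyz2, Cd5l and Cd68. The largest step between neighbours was 0.16, and the smallest SD of any member over its pairs was 0.37. All genes were read on the same arrays, so these SDs do not measure the spread of a difference between 2 genes. Differences between neighbours within pairs were not tested, and the order is a description only. The whole span from first to last was 0.79, and the median SD of the members was 0.65, against 0.48 for named probes with 4 values.

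The 2 sets, resident markers and general macrophage genes, were compared within each pair. The median of the 5 resident markers was 0.75, 1.07, -0.17 and 0.98 in pairs 1 to 4, with a mean of 0.66 ± 0.57 (SD, n = 4). The median of the 5 general genes was 1.07, 1.16, -0.18 and 0.78, with a mean of 0.70 ± 0.61. Within a pair, the resident median minus the general median was -0.32, -0.085, 0.012 and 0.21, and averaged -0.047 ± 0.22. The resident median was the lower in pairs 1 and 2 and the higher in pairs 3 and 4, and the mean difference was smaller than its spread. The sign of that mean turned with the mean over genes in place of the median (0.093), without Marco (0.034) and without pair 1 (0.045). If the arrays with the mutant in Cy5 ran the other way, the resident median would be 0.25 ± 0.90 and the general median 0.41 ± 0.90. Their difference would be -0.16 ± 0.14 (SD, n = 4), larger than its spread. That reading was not the one used. The mean ratio correlated with the authors' log2 fold change at 0.985 as deposited and at 0.164 after this turn.

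**Figure D2:**
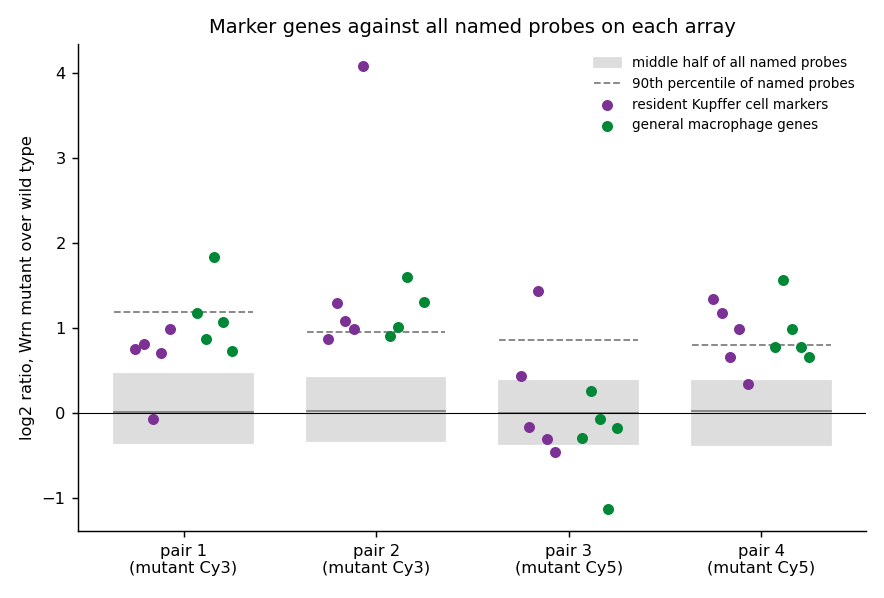
Log2 ratios, mutant over wild type, of the resident markers (purple) and general macrophage genes (green) on each array, over the range from the 25th to the 75th percentile of all named probes (grey box, line at the median) and their 90th percentile (dashed). In pairs 1, 2 and 4 both sets lie mostly above the box, and in pair 3 only Vsig4 and Timd4 lie above it, with Marco and Cd68 below.

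Pair 3 stood apart for these genes. Of the members measured, 9 of 10 were positive in pair 1, 9 of 9 in pair 2, 3 of 10 in pair 3 and 10 of 10 in pair 4, where 50.4%, 51.7%, 50.1% and 51.4% of named probes were. The 3 positive members in pair 3 were Timd4, Vsig4 and Csf1r. Above the 75th percentile of named probes lay 9 members in pair 1, 9 in pair 2, 2 in pair 3 and 9 in pair 4.

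Among the 9 members with 4 values, pair 3 was the lowest of the 4 in 8, where 25% of named probes had their lowest value there. A pattern of higher in pairs 1, 2 and 4 and lower in pair 3 was held by 6 of these 9 members and by 6.47% of named probes with 4 values. Pair 3 was singled out from these same values, so the shares that set it apart are descriptions and not a test. Only Vsig4 and Csf1r were higher in 4 of 4 pairs, 2 of 9 members against 10.9% of named probes. Higher in pairs 1, 2 and 4 whatever pair 3 showed were 8 of 9 members and 17.4% of named probes. The shares of named probes are over all intensities, and most members were brighter than the median named probe. Correlations between arrays ran from 0.15 to 0.37 among named probes above that median, and from -0.042 to 0.12 over all probes. Shares among probes as bright as the members were not computed. Leaving pair 3 out, 9 of the 10 members were higher in every pair measured, the exception being Timd4. The fitted ratios without pair 3 were 1.11 for Clec4f, 0.91 for Cd5l, 0.90 for Emr1 and 0.83 for Lyz2. Without pair 4, which doubles the weight of pair 3, they were 0.44, 0.26, 0.37 and 0.41 in the same order. Timd4 was lowest without pair 2, at 0.48.

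The dye orientation moved with part of the spread. Pairs 1 and 2, with the mutant in Cy3, gave a higher mean than pairs 3 and 4 in 8 of 10 members, where 51.1% of named probes did, and Vsig4 and Timd4 were the exceptions. With the mutant in Cy3 and in Cy5, the means were 1.71 and 0.45 for Cybb, 1.05 and 0.50 for Clec4f, and 0.94 and 0.91 for Csf1r. Means were above 0 in both orientations for 8 of 10 members, against 30.2% of named probes with 4 values. Marco and Cd68 were the others, with means of -0.066 and -0.18 where the mutant was in Cy5. The dye coefficient passed the limma test for 0 of 10 members and 0 of 40238 probes (0%). The orientations hold different animals, so labelling and animal cannot be told apart.

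**Figure D3:**
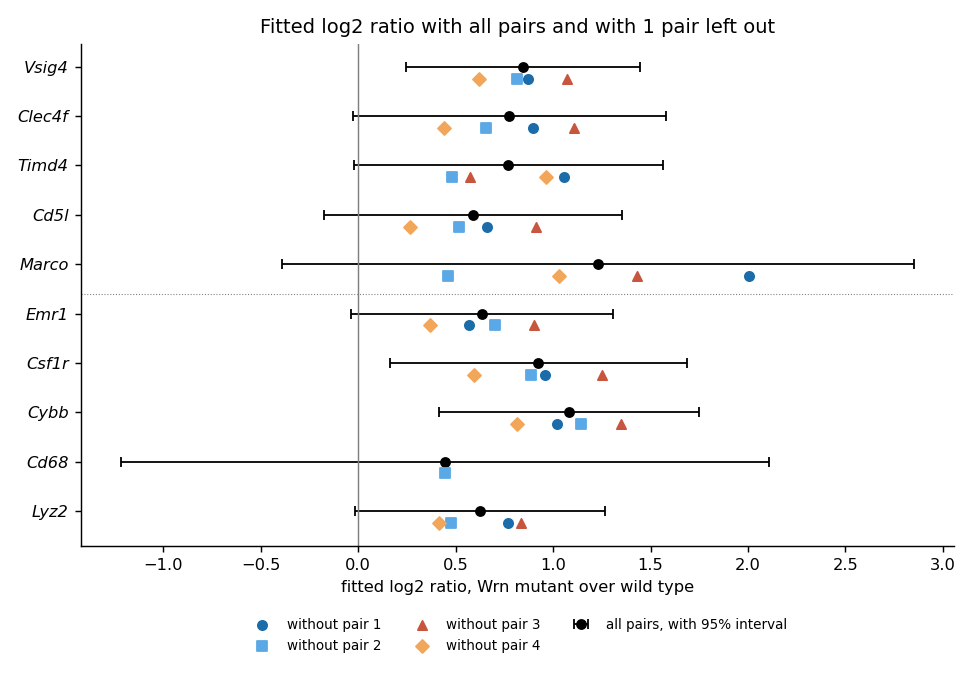
Fitted log2 ratio, mutant over wild type, of each gene with all pairs (black, 95% interval from limma) and with 1 pair left out (coloured). All fitted values lie above 0, and Cd68 could be fitted only without pair 2, where it has no value.

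Medians of the other macrophage lists lay between 0.0087 and 0.51. Of 15 further Kupffer cell genes, 12 had a positive and 3 a negative fitted ratio, with a median of 0.39 against 0.042 for all named probes, and 0 passed in either direction. Fcna, the lectin ficolin A, was the steadiest of them at 0.97 ± 0.21 (SD, n = 4) and was higher in 4 of 4 pairs, with 0.68 in pair 3. Slc40a1, the iron exporter ferroportin, was at 0.69 ± 0.28 and Hpgd, a prostaglandin-degrading enzyme, at 0.61 ± 0.31, both also higher in 4 of 4. The 3 negative genes were C6, Il18bp and Cd207, named after their values were seen.

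Of 12 regulators of the macrophage lineage, 10 had a positive ratio and 0 passed, with a median of 0.32. Maf, a leucine zipper transcription factor, was at 0.48 ± 0.32 (SD, n = 4) and Rbpj, the Notch effector, at -0.73 ± 0.86. The PU.1 gene, listed as Sfpi1 and singled out after its value was seen, was at 0.30 ± 0.31. Among 11 ligands and partners of CSF1R the median was 0.059, with 7 above 0 and 0 passing. Tyrobp and Fcer1g, signalling adaptors of myeloid receptors, were at 0.75 ± 0.45 and 1.17 ± 1.32 (SD, n = 4), Fcer1g with 3.11 in pair 1, and the ubiquitin ligase gene Cbl was at -0.24 ± 0.29. The ligands Csf1 and Il34, singled out likewise, were at -0.039 and 0.28 in the fit.

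All 8 genes of the NADPH oxidase list had a positive ratio and 0 passed, with a median of 0.42. Beside Cybb, Rac2, a GTPase of the complex, was at 0.89 ± 0.25 (SD, n = 4), and Ncf1, the p47phox subunit, at 0.72 ± 0.42, and both were higher in 4 of 4 pairs. Of 17 scavenger and phagocytic receptors, Timd4 and Marco among them, 15 were above 0 and 0 passed, with a median of 0.51. Msr1, scavenger receptor A, was at 0.68 ± 0.22, Fcgr2b, an inhibitory Fc receptor, at 0.55 ± 0.20 and Mrc1, the mannose receptor, at 0.55 ± 0.73, and sinusoidal endothelium also expresses Fcgr2b and Mrc1.

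Of 11 complement C1q and pattern recognition genes, 7 were above 0 and 0 passed, with a median of 0.39. C1qa, a chain of the C1q complex made by macrophages, read 0.71, 1.16, -0.22 and 0.89 in pairs 1 to 4, with a mean of 0.63 ± 0.60 (SD, n = 4). Tlr4, the endotoxin receptor, was at 0.75 ± 0.52, and Lbp, a lipopolysaccharide-binding protein that hepatocytes secrete, at -1.13 ± 0.90. Among 13 measured genes of the myeloid lineage the median was 0.24, with 12 above 0 and 0 passing, and Coro1a, Ms4a7 and Laptm5, with the lowest unadjusted p-values, were at 0.58 ± 0.24, 0.47 ± 0.31 and 0.56 ± 0.40.

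Lysosomal proteins had a median of 0.0087, with 8 of 15 above 0 and 0 passing. Ctsb, cathepsin B, was at 0.55 ± 0.39 (SD, n = 4), Gusb at 0.41 ± 0.49 and Grn, progranulin, at -0.50 ± 0.20. Monocyte markers had a median of 0.12, with 6 of 10 above 0 and 0 passing. Among those with 4 values, the lowest unadjusted p-values belonged to Cx3cr1, Itgal and Spn, at 0.79 ± 0.67, 0.51 ± 0.73 and 0.61 ± 0.94 (SD, n = 4). F13a1, a coagulation factor subunit of monocytes measured in 3 pairs and singled out after its value was seen, had a lower one and was below 0 in each, at -0.78 ± 0.24 (SD, n = 3). Genes of lipid-associated macrophages had a median of 0.014, with 4 of 8 above 0 and 0 passing. Spp1, also a cholangiocyte marker, was at -0.42 ± 0.12 (SD, n = 4), Atp6v0d2 at -0.99 ± 0.23 and Ctsk at 0.25 ± 0.48. The median of macrophage activation genes was 0.35, with 9 of 13 above 0 and 0 passing. In this last list Cd86 was at 0.75 ± 0.84, Il10 at -0.75 ± 1.10 and Retnla at -0.38 ± 0.33.

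**Figure D4:**
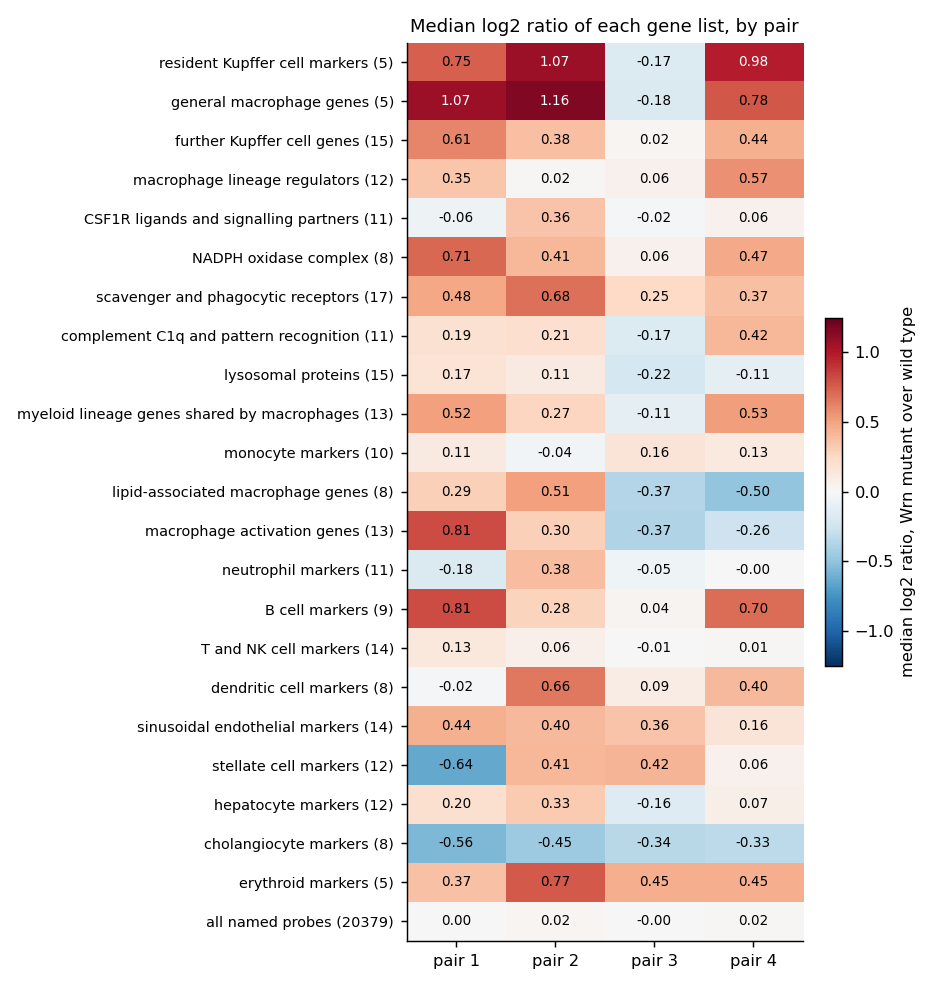
Median log2 ratio, mutant over wild type, of the member sets and of each further gene list (rows, number of genes measured in brackets) in the 4 pairs (columns). The 2 sets of members have medians of 0.75 to 1.16 in pairs 1, 2 and 4 and -0.17 and -0.18 in pair 3, while 7 further lists are above 0 in all 4 pairs, those of further Kupffer cell genes, lineage regulators, NADPH oxidase, scavenger receptors, B cells, sinusoidal endothelium and erythroid cells.

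Markers of B cells, sinusoidal endothelium and erythroid cells also had medians above 0. Of these lists, only B cell markers had their lowest array median in pair 3. B cell markers had a median of 0.65, with 7 of 9 above 0, and array medians of 0.81, 0.28, 0.035 and 0.70 in pairs 1 to 4. Cd79b, of the B cell receptor, was at 0.87 ± 0.16 (SD, n = 4), Igj (now Jchain) at 0.91 ± 1.16, and Cd74, which macrophages also express, at 1.08 ± 1.03, with -0.41 in pair 3. Sinusoidal endothelial markers had a median of 0.38, with 13 of 14 above 0, and array medians of 0.44, 0.40, 0.36 and 0.16. Ptprb, an endothelial phosphatase, was at 0.65 ± 0.17, beside Fcgr2b and Mrc1 above. Erythroid markers had a median of 0.55, with 5 of 5 above 0, and array medians of 0.37, 0.77, 0.45 and 0.45. Hba-a1, Alas2 and Epb4.2 (now Epb42) were at 0.46 ± 0.77, 0.55 ± 0.17 and 0.88 ± 1.40. Of these 3 lists, 0 genes passed in either direction, and their part in the macrophage ratios was not tested.

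Neutrophil markers, which share Lyz2 expression with macrophages, had a median of 0.22, with 6 of 11 above 0. S100a8 and Mpo were at 0.74 ± 1.07 and 0.53 ± 0.96 (SD, n = 4), highest in pair 1, and Ltf at -0.38 ± 0.35. T and NK cell markers had a median of 0.19, with 8 of 14 above 0, and Cd3e, Gzmb and Klrb1c were at 0.39 ± 0.20, -0.61 ± 0.82 and 0.66 ± 0.89. Dendritic cell markers had a median of 0.24, with 7 of 8 above 0, and Xcr1, Ccr7 and Cd209a were at 1.12 ± 1.11, 0.34 ± 0.47 and 0.99 ± 2.00. Hepatocyte markers, with a median average log2 intensity of 14.3 against 6.44 for the named probes tested, had a median ratio of 0.065 with 7 of 12 above 0. G6pc was at 1.68 ± 0.90, Cyp2e1 at 0.32 ± 0.52 and Ass1 at 0.38 ± 0.22. Stellate cell markers had a median of -0.19, with 5 of 12 above 0, though Ecm1, Reln and Hand2 were at 0.81 ± 0.24, 0.61 ± 0.48 and 0.55 ± 0.23. Cholangiocyte markers had a median of -0.45, with 7 of 8 below 0, and Krt19, Sox9 and Muc1 were at -1.12 ± 1.12, -0.53 ± 0.25 and -0.50 ± 0.22. Of these lists, too, 0 genes passed, and their part was not tested.

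The mean of the 10 genes was 0.88, 1.46, -0.053 and 0.92 in pairs 1 to 4. Among 10149 other named probes with 4 values and an intensity above the median, the closest to this profile by root mean square difference over the 4 arrays was Stbd1, a glycogen-binding protein, at 0.192. C1qa followed at 0.193, then 1200009I06Rik (now Exoc3l4), Zbtb7a, Acat1, Crb3 and Sf3b3, at 0.217 to 0.265. Stbd1 read 1.02, 1.55, 0.18 and 0.67 in pairs 1 to 4. With 4 arrays, a close profile is a description of these values only.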

How the data were processed

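Gene expression was measured on 4 two-colour Agilent arrays. The values used are the log2 ratios per probe and array that the authors deposited, and the average log2 intensity per gene of the authors' deposited table. The submitters' processing notes name limma, and the background correction, normalization, filters and numerator are otherwise not stated. The mean of the 4 ratios correlated at 0.985 with the authors' deposited log2 fold change, and at 0.164 after turning the arrays with the mutant in Cy5, so the columns were read as 1 direction, which describes the authors' averaging and not the numerator.

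Each of 40238 probes with at least 3 values was fitted with limma 3.58.1 in R 4.3.3 (lmFit, eBayes) on genotype and dye, with Benjamini-Hochberg adjustment over all of them at 0.05. With 4 values this leaves 2 residual degrees of freedom. The fit was also run on simulated data as a check of the code. Its outcome is not reported here, and no result above rests on it. No value was imputed, and a missing value was left out. The 10 members and the 20 gene lists were chosen with earlier results of these data known. List genes were matched by accession first (17284 of 17813 matched RefSeq), then by symbol, and Mpeg1, Ly6g, Ighm, Trac, Pck1, Serpina1a, Hbb-b1 and Hbb-b2 were not matched. The rule for naming took all members, the 3 genes per list with 4 values and the smallest unadjusted p, and the 8 probes most like the members' mean. Exceptions are marked, and some genes the rule names are not reported here. Median ratios of a list are over fitted values unless a pair is named. Mean ± SD is over pairs. The alternatives were centring, scaling, leaving out a pair, the dye term, weights, priors, filters, the dye direction, the threshold, and means in place of medians.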

Additional observations from a re-analysis of the deposited data

Results flagged for a closer look

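In 2 of 89 results with values in all 4 pairs, 1 pair stood well away from the remaining 3. Chance would place about 4.45 there, and neither result was a member. Ltf, a neutrophil granule gene, read -0.90 in pair 3, against -0.18, -0.23 and -0.19 in pairs 1, 2 and 4. Ccr7, a receptor of migrating dendritic cells, read 1.04 in pair 1, against 0.040, 0.18 and 0.11 in pairs 2 to 4.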

How the results depend on the processing

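Every fit was paired, because the ratio within each array already is the pairing. No unpaired fit was made, as single channels were not used here. Across 15 alternative fits, 142 of 144 values of single members kept their sign and stayed short of the threshold, with adjusted p from 0.118 to 0.991. The other 2 changed sign when the arrays with the mutant in Cy5 were turned, Vsig4 to -0.039 and Timd4 to -0.27, and the count of members in 1 direction on all arrays was then 0, against 2. That count ran from 2 to 9 when 1 pair was left out, with 9 without pair 3. Leaving out 1 pair moved the resident median between 0.52 (without pair 2) and 0.93 (without pair 3), the general median between 0.55 and 1.00, and their difference between -0.13 and 0.045. Probes past the threshold numbered 0, except 42 with a prior variance following intensity and 1 among named probes brighter than the median, and members past it numbered 0 in every fit. The cause of these differences was not tested. With 1 pair left out, the lone pair of an orientation counted as much as the other 2 together. Array weights could not tell the pairs of 1 orientation apart. Signal over background was not analysed here. Marco and Cd68 had the widest intervals. Leaving out Marco, Timd4 or Cd68, chosen after seeing the data, moved each set's median by less than its SD.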
